A study of Homo sapiens with 6 samples.

Results

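The genes described here encode 6 proteins of the methyl-CpG binding group: MBD1, MBD2, MBD3, ZBTB33 (the protein Kaiso), ZBTB38 and ZBTB4. They were chosen by name, with earlier results of these data known, and each had 1 row in both of the deposited expression tables, 6 of the 17721 gene identifiers listed in either table. U2OS is an established human osteosarcoma line, and the labels describe 6 RNA samples from it, all from cells transfected with a plasmid for an NSun2 mutant. NSun2 is a methyltransferase that places 5-methylcytosine on RNA, and DNMT1 is the enzyme that copies cytosine methylation onto newly made DNA. The 4 groups were input RNA of shNC cells (wild-type genotype, 1 sample), input RNA of shDNMT1 cells (DNMT1 knocked down, 1 sample), and RNA that came down with the NSun2 mutant from shNC cells (2 samples) and from shDNMT1 cells (2 samples).

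The values are FPKM, fragments scaled by transcript length and sequencing total, in 2 tables that name no sample, no group and no fraction. They are called the first table (15167 genes) and the second table (16824 genes), the order carries no meaning, and neither could be assigned to control or knockdown cells, or to input or precipitated RNA. Each gene thus had 1 value per table, without replicate, SD, interval or test, and every difference below is one between these 2 tables. DNMT1, the knockdown target, stood at 23.3 and 9.36 FPKM, and NSUN2 at 559 and 1147 FPKM. Markers of the labelled cell type were sparse, and the marker levels do not sit well with an osteosarcoma label: of 7 bone genes, 2 were in the first table, 4 were in the second, with RUNX2 in the latter alone, at 0.81 FPKM, and COL1A2, SPP1 and SP7 in neither. ALPL, the alkaline phosphatase of bone and other tissues, stood at 78.4 and 38.0 FPKM. COL1A1, a fibrillar collagen chain, had 3.04 and 0.45 FPKM. All 4 epithelial markers were listed, with KRT8 at 1597 and 1410 FPKM and KRT18 at 1293 and 1196 FPKM, but CDH1 at 8.42 and 0.39 FPKM and EPCAM at 2.20 and 0.55 FPKM. Of 4 mesenchymal markers, VIM was the highest, at 262 and 407 FPKM. CDH2 stood at 7.41 and 16.2 FPKM and FN1 at 4.84 and 11.7 FPKM. SPARC was in the second table alone, at 0.033 FPKM. Of 5 blood and endothelial markers the highest value was 0.82 FPKM.

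Methylation of CpG dinucleotides in DNA is read by proteins that bind the methylated site and bring in enzymes that compact chromatin. One family shares the methyl-CpG-binding domain (MBD). MBD2 and MBD3 are alternative subunits of the NuRD complex, which couples histone deacetylases to a nucleosome remodeller, while MBD1 works with the histone H3 lysine methyltransferase SETDB1 and its cofactor ATF7IP. Mammalian MBD3 binds methylated CpG poorly because of changes within its MBD, so it belongs to the group by family more than by activity. The other family reads methylated CpG with zinc fingers joined to a BTB domain, which mediates protein contacts: Kaiso, which recruits the NCoR corepressor, and its relatives ZBTB4 and ZBTB38.

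CpG is the letter pair that these proteins read. The 250 bases before the RefSeq start of the 3 MBD members are shown because MBD1 and MBD3 were the members that differed most between the tables, in opposite directions, and MBD2 is the paralog of MBD3. Sequences are from RefSeq, build GRCh38.p14, minus strand, written 5′ to 3′ in lower case with every CpG in capitals, at chr18:50281768-50282017 for MBD1, chr18:54224670-54224919 for MBD2 and chr19:1592866-1593115 for MBD3.
MBD1: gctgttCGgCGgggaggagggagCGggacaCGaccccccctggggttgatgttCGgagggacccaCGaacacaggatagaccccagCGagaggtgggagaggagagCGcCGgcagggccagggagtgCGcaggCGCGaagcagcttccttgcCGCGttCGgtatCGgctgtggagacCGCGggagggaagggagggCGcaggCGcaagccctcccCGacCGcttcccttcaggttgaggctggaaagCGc
MBD2: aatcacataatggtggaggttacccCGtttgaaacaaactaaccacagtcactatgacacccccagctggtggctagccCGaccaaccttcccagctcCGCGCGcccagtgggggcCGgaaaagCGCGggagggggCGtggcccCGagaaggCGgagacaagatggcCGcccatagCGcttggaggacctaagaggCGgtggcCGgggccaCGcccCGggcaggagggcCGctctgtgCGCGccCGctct
MBD3: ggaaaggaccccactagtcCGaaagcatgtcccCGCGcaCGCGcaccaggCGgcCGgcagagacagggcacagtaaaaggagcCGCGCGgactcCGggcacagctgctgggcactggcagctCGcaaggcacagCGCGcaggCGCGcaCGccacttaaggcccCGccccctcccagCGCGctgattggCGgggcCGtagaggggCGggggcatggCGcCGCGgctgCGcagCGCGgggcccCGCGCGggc
These 3 stretches hold 23, 21 and 32 CpG, with a G and C content of 69.2%, 66.4% and 74.8%. The RefSeq table had promoter windows of 300 bases, running 50 bases past the start, for all 6 members. MBD1 had 27 CpG in its window, MBD2 had 32, MBD3 had 40, ZBTB33 had 33 and ZBTB4 had 31. The median was 24 over 15718 windows of genes listed in either table, and the share of those windows with at least as many CpG was 43.6% for MBD1, 29.4% for MBD2, 11.8% for MBD3, 26.8% for ZBTB33 and 32.2% for ZBTB4. ZBTB38 has 10 annotated starts, whose windows ranged from 0 to 35 CpG with a median of 4.5. The run CGCG, which holds 2 adjacent CpG as in methylated sites bound by Kaiso and reads the same on both strands, was in the windows of the other 5 members and in 1 of the 10 windows of ZBTB38, against 71.6% of windows of listed genes. The unmethylated Kaiso motif TCCTGCNA, searched on both strands and free of overlap with CGCG, was in 1 window of ZBTB38 and in 4.26% of windows of listed genes. The methylation of these CpG was not analysed here.

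All 6 genes were in the moderate range. In the first table the order was MBD3 (31.5 FPKM), ZBTB4 (16.7), MBD1 (13.6), ZBTB38 (9.41), MBD2 (4.91) and ZBTB33 (3.77), a span of 8.37-fold from highest to lowest. In the second it was MBD3 (24.2 FPKM), MBD1 (20.5), ZBTB4 (16.1), ZBTB38 (9.07), MBD2 (5.27) and ZBTB33 (4.31), a span of 5.60-fold. The order was therefore the same apart from the exchange of MBD1 and ZBTB4. With no replicate it cannot be said which neighbours in the order differ. The ranks among all listed genes ran from 2028 (MBD3) to 7794 (ZBTB33) in the first and from 2674 to 7709 in the second table. Summed, the 6 genes came to 79.9 and 79.4 FPKM, so the total was nearly equal while its makeup differed: MBD3 gave 39.5% of the sum in the first and 30.4% in the second table, and MBD1 gave 17.0% and 25.9%.

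**Figure D1:**
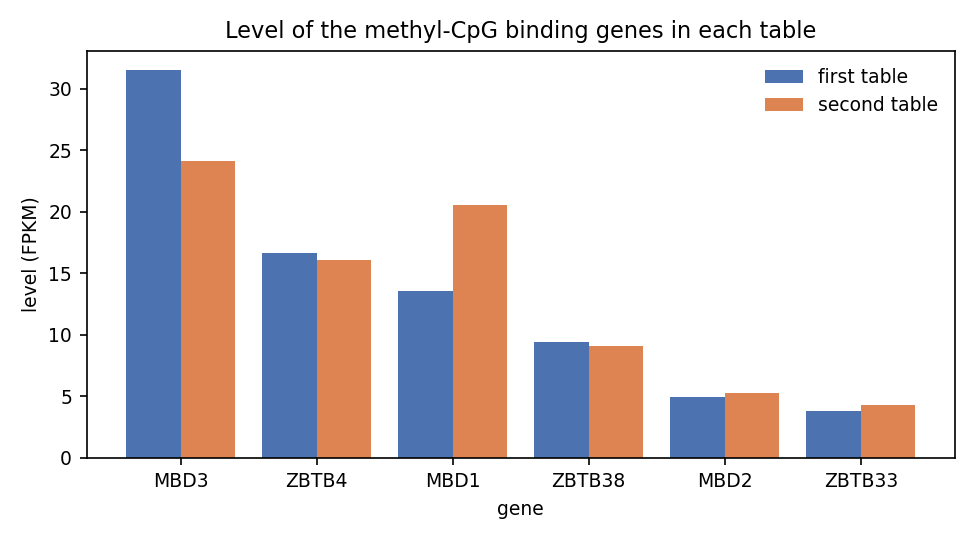
FPKM of each of the 6 genes (bars, axis from 0) in the first and the second table, ordered by the first; 1 value per table, so there are no error bars. MBD3 is the highest in both tables, MBD1 is higher in the second (20.5 against 13.6 FPKM), and ZBTB4, ZBTB38, MBD2 and ZBTB33 are at similar heights in both.

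Ratios between the tables were taken as log2((second + 1)/(first + 1)), with 1 FPKM added to both, which shrinks the ratios of low genes. No member was 2-fold apart on this scale, where 3.72% of the 14270 genes in both tables were. On balance 3 members were higher in the second table and 3 lower, against 54.8% and 45.2% of all genes, and the members' median log2 ratio was 0.02 beside 0.05 for all genes, and -0.03 once the ratios were centred on the latter. The middle 50% of all genes lay between -0.23 and 0.36, a range that held ZBTB4, ZBTB38, MBD2 and ZBTB33 but not MBD1 or MBD3. A ratio as far from 0 as that of MBD1 was found in 21.7% of all genes, and one as far as that of MBD3 in 40.8%. Neither member therefore stood outside the ordinary distance between the tables.

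**Figure D2:**
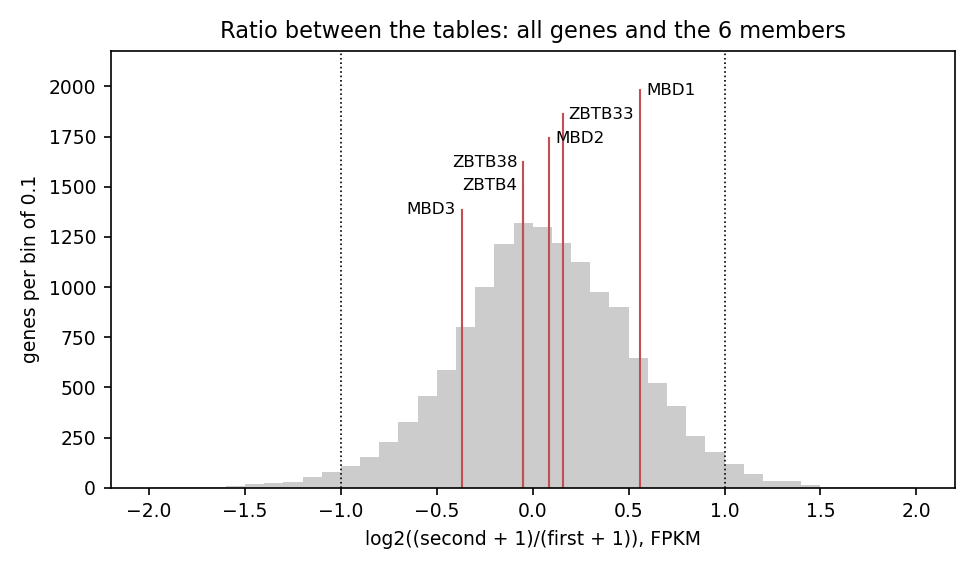
Number of genes (grey bars, bins of 0.1) by log2 ratio of the second over the first table on the log2(FPKM + 1) scale, with the 6 members as vertical lines and 2-fold as dotted lines; bins beyond a log2 ratio of 2 in size are not drawn. All 6 members lie within the bulk of the distribution, from MBD3 at -0.37 to MBD1 at 0.56.

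MBD1 carries, beside its MBD, CXXC zinc fingers, one of which binds unmethylated CpG. Its level was 13.6 FPKM in the first and 20.5 FPKM in the second table, giving a log2 ratio of 0.56 and 1.51 times as high without the added 1. The gene (ENSG00000141644; chromosome 18, 50266882 to 50281774, hg38) was alone at its locus in the tables. Its flanks are close: CFAP53, a gene of motile cilia, lies 360 bp away and was near the floor at 0.14 and 0.070 FPKM. On the side of the MBD1 promoter lies CXXC1, a subunit of the SET1 histone methyltransferase complexes that binds unmethylated CpG. The nearer edge of its interval is 576 bp from the MBD1 start, and the strand of CXXC1 was not used. CXXC1 stood at 34.8 and 30.8 FPKM, giving a log2 ratio of -0.17, so the adjacent genes had ratios of opposite sign.

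MBD3 had a level of 31.5 FPKM in the first and 24.2 FPKM in the second table, giving a log2 ratio of -0.37. Its locus in the tables (ENSG00000071655; chromosome 19, 1573596 to 1605490) is a merged interval that runs past the RefSeq gene, which ends at 1592865, and it also holds UQCR11, a small subunit of respiratory complex III. UQCR11 stood at 48.1 and 39.0 FPKM, giving a log2 ratio of -0.30. Another identifier there, AC005943.2, appeared in the second table only, at 1.44 FPKM. The sources used here do not say how fragments were divided among them upstream, and the FPKM of the locus summed had a log2 ratio of -0.30.

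MBD2, which binds methylated CpG with high preference, was low in comparison with MBD3. It stood at 4.91 and 5.27 FPKM, giving a log2 ratio of 0.09 (ENSG00000134046; chromosome 18, 54151601 to 54224788, alone at its locus). FPKM is scaled by transcript length, so the paralogs were set side by side within a table. MBD3 was 6.42 times MBD2 in the first and 4.59 times in the second table. MBD2 thus made up 13.5% and 17.9% of the pair's summed FPKM. Both tables showed the same imbalance in FPKM, with the larger value for the paralog that binds methylated CpG poorly. Either table may hold input or precipitated RNA, and MBD3 shared its locus with UQCR11. The imbalance therefore need not be that of the RNA in the cells.

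The zinc-finger members had ratios close to 0. ZBTB33 (ENSG00000177485; chromosome X, 120250752 to 120258398), the gene for Kaiso, stood at 3.77 and 4.31 FPKM, giving a log2 ratio of 0.16, and was the lowest member in both tables. ZBTB38 (ENSG00000177311; chromosome 3, 141228726 to 141449792), a reader that can bind a single methylated CpG, stood at 9.41 and 9.07 FPKM, giving a log2 ratio of -0.05. It shared its locus with PXYLP1, a phosphatase acting on xylose in proteoglycan synthesis, present at 1.04 and 0.37 FPKM. ZBTB4 (ENSG00000174282; chromosome 17, 7459366 to 7484263), which also binds single methylated CpG, stood at 16.7 and 16.1 FPKM, giving a log2 ratio of -0.05. Its nearest listed gene, POLR2A, the largest subunit of RNA polymerase II, lies 103 bp away and was listed at 82.2 and 66.9 FPKM. The ratio of ZBTB4 to ZBTB38 was 1.77 in both tables, while ZBTB33 was 0.40 times ZBTB38 in the first and 0.48 times in the second.

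By distance in log2(FPKM + 1) over the 2 tables, the nearest of 7599 genes alone at their locus was ATP6V1E1 for MBD1 (13.6 and 20.5 FPKM), a subunit of the vacuolar proton pump. TAF8, a subunit of the general transcription factor TFIID, was nearest to MBD2, and the kinase gene PIM1 (30.6 and 24.1 FPKM) to MBD3. NFIA was nearest to ZBTB33, GTF3C6 to ZBTB38 and SKI to ZBTB4. With 2 points a gene, such likeness is one of level and ratio alone.

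The NuRD list held 12 subunit genes, each with a row in both tables, and left out the members MBD2 and MBD3. Of these 12, 10 had a positive log2 ratio and 2 a negative one (9 and 3 with centred ratios, where RBBP7 turned lower). The median of the 12 was 0.19 beside 0.05 for all genes. Of the members left out, MBD2 had a ratio of 0.09 and MBD3 one of -0.37. Across all genes in both tables, 54.8% were higher and 45.2% lower. Of the 12 NuRD genes, 7 shared their locus with another gene. None was 2-fold apart on the log2(FPKM + 1) scale, where 3.72% of all genes in both tables were. CDK2AP1, a small NuRD subunit first described as an inhibitor of CDK2, came nearest. It stood at 23.3 and 46.7 FPKM, giving a log2 ratio of 0.98, and 2.01 times as high without the added 1. Its locus was shared with 4 other identifiers, among them MPHOSPH9. MTA3, a scaffold subunit, was low, at 3.07 and 5.39 FPKM, and the deacetylase HDAC2 was listed at 15.2 and 21.0 FPKM. The lower ones of the 12 were CHD3, one of the alternative remodelling ATPases, at 30.7 and 23.0 FPKM, and the scaffold MTA1, at 45.8 and 42.6 FPKM. MTA2 was the most abundant of the 12 in both tables, with 74.9 and 85.2 FPKM.

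Several NuRD subunits come as pairs of paralogs, as with MBD2 and MBD3. The balance of a pair within a table does not depend on the scaling between tables. CHD4 made up 60.9% of the CHD3 and CHD4 sum in the first and 68.7% in the second table. HDAC1 made up 72.04% and 68.8% of the sum with HDAC2. RBBP4 and RBBP7, histone-binding subunits, were near parity, with RBBP4 at 50.01% and 53.6%. GATAD2A, which bridges the MBD protein to the remodeller, held 67.7% and 68.2% of the sum with GATAD2B. The pairs CHD3 to CHD4 and MBD2 to MBD3 had the largest differences among these 6 pairs, with log2 changes of -0.50 and 0.49 in their ratios. Both CHD3 and MBD3 shared their locus with other genes, as did CHD4, MTA1, HDAC2, RBBP4 and RBBP7 of these pairs.

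**Figure D3:**
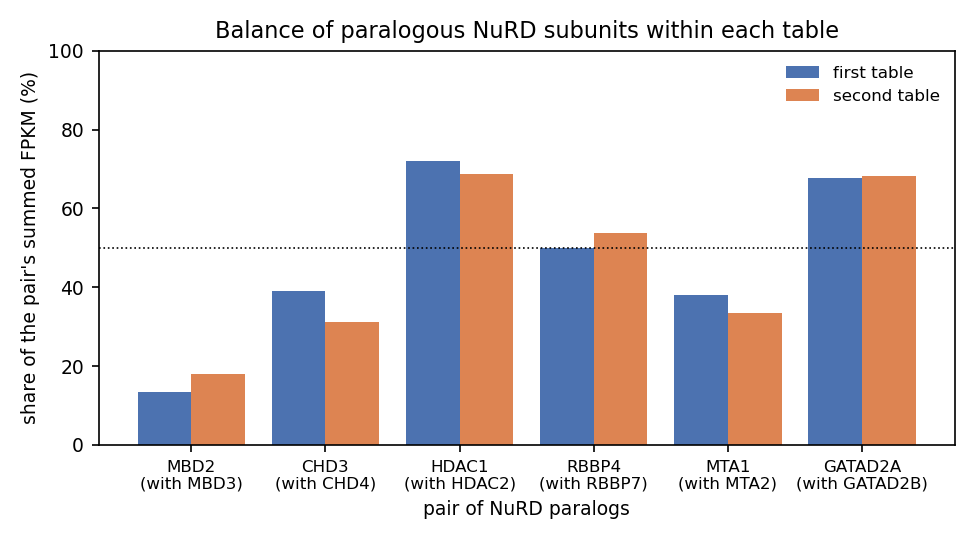
Share (percent) of the first-named gene in the summed FPKM of 6 pairs of NuRD paralogs, in the first and second table; the dotted line marks equal levels. MBD2 is the minor partner of MBD3 in both tables, at 13.5% and 17.9%, and RBBP4 lies near 50% in both.

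Of the 6 partners of MBD1, 4 were higher in the second table and 2 were lower, with a median log2 ratio of 0.07. The counts were 5 and 1 when rescaled without abundant noncoding RNAs, where SUV39H1 turned higher. Among all genes 54.8% were higher and 45.2% lower, with a median of 0.05. Among the 6 partners, 5 shared their locus with another gene. SETDB1, the H3 lysine methyltransferase that itself carries an MBD-like fold, stood at 7.08 and 10.6 FPKM, giving a log2 ratio of 0.53, close to the 0.56 of MBD1. It shared its locus with CERS2. ATF7IP was listed at 2.64 and 2.92 FPKM and its relative ATF7IP2 at 3.46 and 1.86 FPKM. CHAF1A, the large subunit of the chromatin assembly factor CAF-1, was listed at 15.8 and 16.6 FPKM, and the methyltransferase SUV39H1 at 38.7 and 37.8 FPKM.

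Of 6 genes that work with Kaiso, 5 were higher and 1 was lower, with a median of 0.25. All genes in both tables were 54.8% higher and 45.2% lower, with a median of 0.05. Among the 6 partners, 4 shared their locus with another gene. NCOR1, the corepressor found with Kaiso, was listed at 10.4 and 12.2 FPKM. GPS2, another subunit of that complex and the lower one, was listed at 23.3 and 20.7 FPKM. HDAC3, the deacetylase of these complexes, was listed at 35.2 and 42.8 FPKM, and TBL1XR1, an exchange factor, at 11.2 and 15.9 FPKM. CTNND1, the p120 catenin that binds Kaiso, was listed at 18.6 and 24.0 FPKM. The same locus held TMX2 and a readthrough gene of both. Each of these genes was more abundant than ZBTB33 itself in both tables.

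Genes linked to ZBTB4 and ZBTB38 were 3 higher and 4 lower, with a median of -0.05, or 0.15 over the 6 genes alone at their locus. Among all genes 54.8% were higher and 45.2% lower, with a median of 0.05. SIN3A, a corepressor scaffold that works with ZBTB4, was listed at 8.002 and 6.07 FPKM and SIN3B at 23.4 and 22.4 FPKM. CDKN1A, a cell cycle inhibitor gene repressed by ZBTB4, stood at 16.5 and 23.8 FPKM, giving a log2 ratio of 0.50, with ZBTB4 itself at a ratio of -0.05. RBBP6, the ubiquitin ligase that targets ZBTB38, was listed at 4.58 and 6.55 FPKM. The replication factor MCM10, which ZBTB38 represses, was listed at 3.19 and 2.62 FPKM. USP9X, a deubiquitinase that stabilises ZBTB38, was listed at 13.9 and 18.0 FPKM.

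Other genes with an MBD-like fold were all listed, 4 higher and 3 lower, with a median of 0.29. Among all genes 54.8% were higher and 45.2% lower, with a median of 0.05. Among these 7 genes, 6 shared their locus with another gene. MBD4, a DNA glycosylase that repairs mismatches at CpG, was listed at 3.22 and 4.53 FPKM. MBD5 and MBD6, which do not bind methylated DNA, were listed at 2.01 and 0.95 FPKM and at 9.51 and 6.96 FPKM. BAZ2A, a subunit of the nucleolar remodelling complex NoRC, was the most abundant, at 24.2 and 29.7 FPKM, whereas its paralog BAZ2B stood at 1.55 and 0.41 FPKM. UHRF1, which reads hemimethylated CpG through its SRA domain and brings DNMT1 to it, was above all 6 members in both tables, at 45.4 and 49.8 FPKM. UHRF2 was at 4.78 and 6.35 FPKM.

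Readers of unmethylated CpG, which carry a CXXC zinc finger, were 2 higher and 4 lower of the 6 in both tables. Their median was -0.17, or 0.075 over the 3 genes alone at their locus. Among all genes 54.8% were higher and 45.2% lower, with a median of 0.05. KMT2A, an H3 lysine 4 methyltransferase, was listed at 11.2 and 7.80 FPKM and KDM2A, an H3 lysine 36 demethylase, at 22.3 and 26.4 FPKM. CXXC4 had a row in the second table alone, at 0.032 FPKM. Among 35 other ZBTB genes in both tables, 19 were higher and 16 lower, with a median of 0.15, or -0.045 over the 23 genes alone at their locus. Their ratios ran from -0.85 for ZBTB22 (6.01 and 2.90 FPKM) to 0.96 for ZBTB1 (1.395 and 3.66 FPKM). The most abundant was ZBTB7B, at 33.1 and 27.6 FPKM, and ZBTB4 exceeded all of them but ZBTB7B and ZBTB44 in the first table. None of the genes in these lists was 2-fold apart on the log2(FPKM + 1) scale, where 3.72% of all genes in both tables were. The added 1 shrinks the ratios of low genes. Without it some were past 2-fold, such as BAZ2B at 0.27 times and ZBTB1 at 2.63 times the level of the first table.

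**Figure D4:**
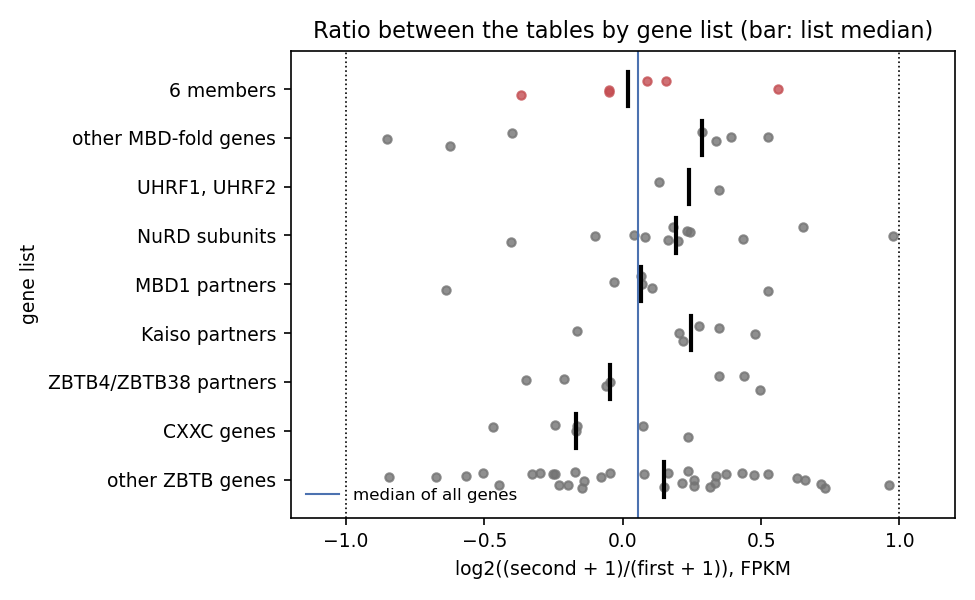
Log2 ratio of the second over the first table, on the log2(FPKM + 1) scale, for each gene (dots) of the 6 members and of the partner and related lists, with list medians as black bars, the median of all genes as a blue line and 2-fold as dotted lines. Every gene drawn lies within 2-fold on this scale, past which 3.72% of all genes in both tables lie. CDK2AP1 of NuRD, at 0.98, and ZBTB1, at 0.96, come nearest to it.

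Ratios also varied with the chromosomal surroundings of a gene. Across all genes in both tables, grouped into 5 equal classes by how many listed genes start within 1 Mb, the median log2 ratio went from 0.20 in the sparsest class to -0.12 in the densest. MBD3 and ZBTB4, with 79 and 90 listed genes around them, were in the densest class, and MBD2 and ZBTB38, with 5 and 8, in the sparsest. Of the 71 genes in both tables near MBD3, 50 were lower in the second, with a median of -0.18, and the ratio of MBD3 was 0.19 lower than that median. Near ZBTB4, 52 of 79 were lower, with a median of -0.20, and ZBTB4 lay 0.15 above it. The 15 genes near MBD1 had a median of 0.07, and MBD1 was 0.49 above it. For ZBTB33 the 17 neighbours had a median of 0.31, above its own 0.16. The 6 neighbours of ZBTB38 had a median of 0.18, and its own ratio was 0.23 lower. The part of gene density in these ratios was not tested.

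**Figure D5:**
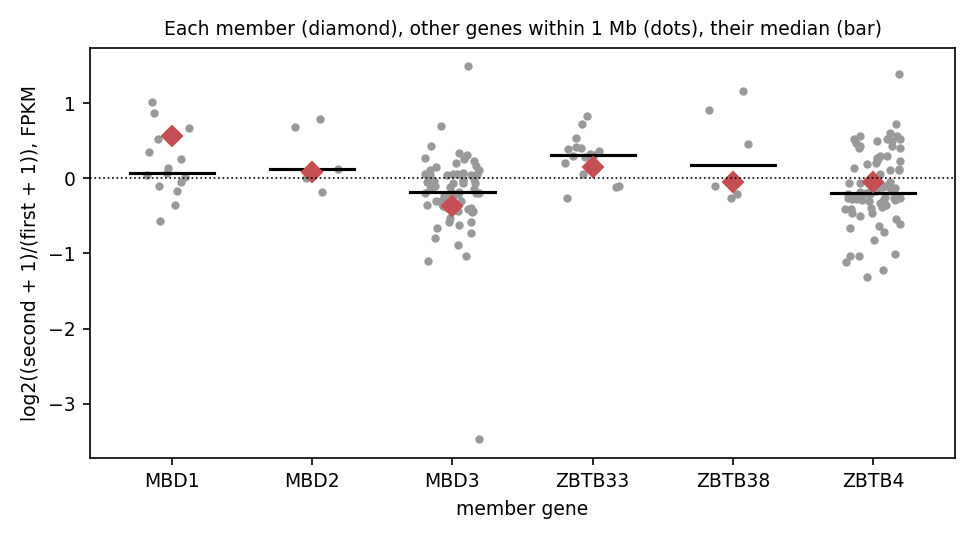
Log2 ratio of the second over the first table, on the log2(FPKM + 1) scale, for each member (diamond) and for the other genes in both tables that start within 1 Mb of it (dots), with the neighbours' median as a bar. MBD1 lies 0.49 above the median of its neighbours, and the lone dot near -3.5 among the neighbours of MBD3 is STK11.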

How the data were processed

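The deposited tables give FPKM per gene, which the authors made. The tool that made them, and whether libraries were pooled, are not given in the sources used here. Per the submitters' processing notes, cutadapt 1.12, BWA 0.7.13, MACS 1.4.2 and the build hg38 were used, with no role stated. The design written for samples with replicates could not be used, since the tables name none. Locus starts were counted from 0 and were raised by 1. In all, 47.5% of identifiers shared their locus with another, so the upstream counting could divide fragments between genes.

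Log2 ratios used a pseudocount of 1 FPKM and no level filter. The arithmetic was checked on simulated data with large changes and little noise, which does not test small differences such as those of the members. Members, partner lists and rules were chosen with earlier results of these data known. One gene of the Kaiso partner list is not reported here and was left out of its counts. Named genes were the members, genes at their loci, flanking genes, list members and the nearest gene by level. The flanking genes and the analysis by chromosomal position were added after the data had been seen. Promoters were matched by symbol in RefSeq (GRCh38.p14), for 6 of 6 members.

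Absolute depth is unknown. Among 2354 genes under 1 FPKM in both tables, ratios piled up at a log2 of -0.07 (36 genes in a bin of 0.02) and at -1.05 (34 genes), so nearly equal depth and 2.07 times more fragments in the second table could not be told apart. Calculations used Python 3.11.15, pandas 2.3.3 and numpy 2.4.6, with figures in matplotlib 3.10.9. Alternatives were another pseudocount, centring, rescaling without 5 abundant noncoding RNAs, summed identifiers and genes alone at their locus.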

Additional observations from a re-analysis of the deposited data

How the results depend on the processing

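No paired analysis was possible because neither table carries replicate numbers, and leaving out replicates was not run for the same reason. No setting brought a member to 2-fold, and the log2 ratio of MBD1 ranged from 0.49 to 0.59 and that of MBD3 from -0.42 to -0.19. The members' median turned from 0.02 to -0.03 when centred on all genes. Centred on neighbours within 1 Mb, which was added after seeing the data, MBD2 became -0.04, ZBTB33 became -0.15, ZBTB38 became -0.23 and ZBTB4 became 0.15. Restricted to genes alone at their locus, which leaves fewer genes, the medians became 0.15 for the ZBTB4 and ZBTB38 partners, 0.075 for the CXXC genes and -0.045 for the other ZBTB genes. With a pseudocount of 0.1 FPKM, which enlarges ratios by construction, 2031 of 14270 genes (14.2%) were 2-fold apart rather than 531 (3.72%). So were 1 of 12 NuRD genes, 2 of 7 other MBD-fold genes and 3 of 35 other ZBTB genes. With so few genes, these counts were not tested against the share of all genes. The 1 NuRD gene was also past 2-fold after rescaling without the abundant noncoding RNAs, where 3.91% of all genes were. The number 2-fold apart was 183 of 7135 genes above the median level (2.56%) and 281 of 7603 genes alone at their locus (3.70%), against 3.72% of all genes, so the latter share was nearly the same. A result counted as moved when it shifted by 0.1 or more on the log2 scale. A count moved when it changed by over 1.5 times or, starting from 0, at all. This held for 15 of 136 recomputed values. The tally does not measure stability, since many of these values could hardly move. Centring shifted every log2 ratio by -0.05, under the limit of 0.1, and summing identifiers left genes with 1 row unchanged.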
